A study of Mus musculus with 35 samples.

Results

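A set of 10 genes of blood-borne white cells, and in part of the brain's own myeloid cells, was followed in the mouse hippocampus after intra-amygdala kainic acid (KA). They are Ptprc, Lyz2, Ccr2, S100a8, S100a9, Slfn4, Cd52, Plek, Fcgr3 and Lilrb4a, 10 of the 32544 genes in the count tables. They were chosen by their measured values in these same libraries, from KA against PBS at 24 hours and 2 weeks in immunoprecipitated and input RNA. Their KA against PBS values are therefore given as a description, without a test, and only comparisons that the choice did not use are tested. The tested comparison of m6A with input RNA still draws on the same library values.

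The animals were young adult male C57BL/6JOlaHsd mice. KA in PBS, or PBS alone in the controls, was microinjected into the amygdala through a cannula. KA, a glutamate receptor agonist, induces status epilepticus, which was eased with lorazepam, and treated animals later have spontaneous seizures, as a model of temporal lobe epilepsy. Mice were perfused through the heart with PBS before the hippocampus was taken, a step that washes out most blood but does not remove cells that adhere to vessels or have entered the tissue. Total RNA was sequenced as input, and RNA immunoprecipitated for N6-methyladenosine (m6A), a methyl mark on adenosines of messenger RNA, was sequenced as m6A libraries. The m6A libraries came from 5 KA and 3 PBS mice at 24 hours and from 6 KA and 5 PBS mice at 2 weeks. The input libraries came from 4 KA and 3 PBS mice at 24 hours and from 6 KA and 3 PBS mice at 2 weeks, most of them the same animals. All comparisons are between bulk tissue samples, so more cells of a type and more RNA per cell cannot be told apart.

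Depth differed between libraries. The m6A libraries held 1652933 to 34564536 counts, the lowest being KA mice 98 and 67 at 24 hours. Of the 16 input libraries, 13 held 3057578 to 12694434 counts and 3 at 24 hours held 3171 to 34486, which left PBS mouse 1 as the only input control at that time. Levels below are CPM, each count scaled to the total of its library, from the 32 deeper libraries. The hippocampal neuron markers, a list of 10 genes, summed to between 1361 and 5216 CPM in each of them. The labels give each library's treatment, time and mouse, but the assay of 27 of the 35 libraries was read from the prefix of its column name. That prefix also divides the libraries into sets. At 24 hours the m6A KA libraries lay in sets 3 and 4 and the PBS libraries in sets 4 and 5, so that only set 4 held both treatments.

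In the healthy brain the parenchyma holds microglia and few other immune cells, and leukocytes stay largely in vessels, meninges and choroid plexus. After status epilepticus, chemokines such as those that bind CCR2 draw monocytes into the hippocampus, while microglia become reactive and share many genes with the incoming cells. Of the 10 genes, Ptprc (CD45, the phosphatase of all leukocytes), Plek (pleckstrin, a kinase substrate of platelets and leukocytes), Fcgr3 (an activating IgG receptor), Cd52 (a small surface glycoprotein) and Lilrb4a (an inhibitory immunoglobulin-like receptor) are also known from microglia, Lyz2 (lysozyme) is a gene of monocytes, macrophages and neutrophils, Ccr2 marks inflammatory monocytes, S100a8 and S100a9 encode the subunits of calprotectin, abundant in neutrophils, and Slfn4 is an interferon-responsive gene of the myeloid lineage.

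The 10 genes lie on 6 chromosomes. In the mm10 build, S100a8 (chr3:90669071-90670034) and S100a9 (chr3:90692630-90695721) are neighbours, and Ptprc (chr1:138062859-138175756) and Fcgr3 (chr1:171051169-171065915) lie apart on chromosome 1. Lilrb4a (chr10:51490898-51496613) and Lyz2 (chr10:117277541-117282272) are on chromosome 10, Plek (chr11:16971206-17008718) and Slfn4 (chr11:83175172-83190216) on chromosome 11, Cd52 (chr4:134093538-134095073) on chromosome 4 and Ccr2 (chr9:124101918-124109140) on chromosome 9. RefSeq promoters of build GRCm38.p6, the assembly also called mm10, were at hand for 8 of the 10 genes, not for Cd52 and Lilrb4a. In the 250 bases before each transcription start, both strands were searched for GAGGAAG, a core of sites of the myeloid factor PU.1, and TTGCNNAA, a form of C/EBP sites. The 8 genes had 10 promoters. GAGGAAG was found in 2 of the 8 genes, Fcgr3 and S100a8. Counted by promoter, this was 3 of 10, beside 10.6% of all 32851 promoters. TTGCNNAA was found in Fcgr3 and S100a9, also 3 of the 10 promoters, beside 9.56% of all promoters. Fcgr3 has a pair of overlapping promoters with the same matches. One promoter of each of these 3 genes is shown 5′ to 3′ on the gene's strand, with the matched letters, or their reverse complement, in capitals. A match is a description of letters and not evidence of binding.
Fcgr3, chr1:171059404-171059653, minus strand: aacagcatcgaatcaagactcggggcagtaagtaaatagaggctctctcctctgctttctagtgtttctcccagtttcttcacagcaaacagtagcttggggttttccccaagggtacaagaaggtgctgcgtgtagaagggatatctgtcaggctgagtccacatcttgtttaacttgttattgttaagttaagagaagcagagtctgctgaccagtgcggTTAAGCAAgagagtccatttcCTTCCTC
S100a8, chr3:90668821-90669070, plus strand: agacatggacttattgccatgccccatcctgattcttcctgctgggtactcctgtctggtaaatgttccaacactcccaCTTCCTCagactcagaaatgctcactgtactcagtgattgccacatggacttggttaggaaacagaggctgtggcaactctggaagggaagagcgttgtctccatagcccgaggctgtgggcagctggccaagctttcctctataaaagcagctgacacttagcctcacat
S100a9, chr3:90695722-90695971, minus strand: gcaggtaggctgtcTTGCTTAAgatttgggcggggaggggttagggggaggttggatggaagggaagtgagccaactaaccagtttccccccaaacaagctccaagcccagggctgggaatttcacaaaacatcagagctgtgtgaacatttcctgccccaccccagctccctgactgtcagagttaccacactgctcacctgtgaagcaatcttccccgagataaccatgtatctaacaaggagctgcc

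Because m6A is deposited mostly in a short consensus, the letters GGACT, a common form of it, were counted in the canonical GENCODE transcript of each gene. Lilrb4a held 5 in 1462 bases, or 3.42 per kb, above 98.9% of the 18331 protein-coding genes compared, and Slfn4 held 8 in 3878 bases, or 2.06 per kb. Ptprc, Lyz2, Ccr2, Plek and Fcgr3 held between 1 and 5, or 0.647 to 1.34 per kb, around the median of 1.04 over all genes. The short transcripts of S100a8 (492 bases), S100a9 (572 bases) and Cd52 (522 bases) held none, as did 9.29% of all genes. These windows show the 3 coding matches of Lilrb4a, the gene with the densest letters, and the only match of Fcgr3, with GGACT in capitals. The libraries give counts per gene and do not place the mark within a transcript.
Lilrb4a, base 140: ctggaacccaGGACTgcagtacagg
Lilrb4a, base 588: cttggaccctGGACTcacagcatca
Lilrb4a, base 781: cactgaagatGGACTggaaacatac
Fcgr3, base 791: gtcacagtggGGACTactactgcaa

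**Figure D1:**
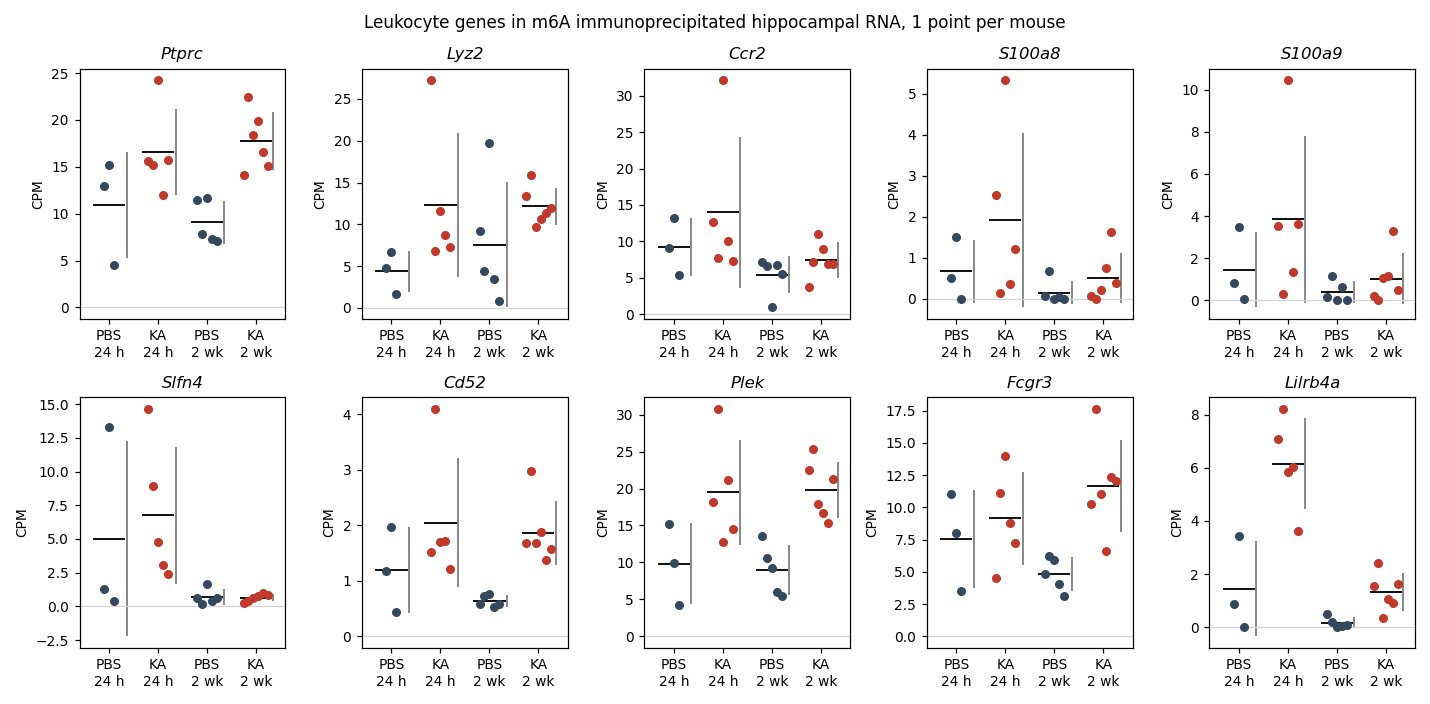
CPM of the 10 genes in m6A libraries, 1 point per mouse, for PBS (dark slate) and KA (red) at 24 hours and 2 weeks. Black lines are group means and grey whiskers 1 SD on either side. At 24 hours only Lyz2 and Lilrb4a had every KA mouse above every PBS mouse, while at 2 weeks Ptprc, Cd52, Plek and Fcgr3 did.

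At 24 hours all 10 genes had a higher mean in m6A libraries of KA mice than of PBS mice, and the genes divided by how evenly the mice shared the difference. Lilrb4a stood highest in relation to its controls. It measured 5.86, 7.07, 8.22, 6.01 and 3.63 CPM in KA mice 8, 67, 79, 97 and 98, a mean of 6.16 ± 1.70 (SD, n = 5). The 3 PBS mice 1, 71 and 73 measured 0.886, 3.44 and 0 CPM, so that every KA mouse lay above every control. The fitted log2 fold change was 2.11 (SE 0.91), and without PBS mouse 71 it was 3.77. Lilrb4a and Lilr4b are near-identical neighbours whose reads may be exchanged in counting. Lilr4b ranged from 0 to 5.60 CPM in the same KA mice and from 0.143 to 2.94 CPM in the PBS mice, with overlap.

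Lyz2 was the other gene without overlap at 24 hours. KA mice 8, 67, 79, 97 and 98 measured 11.6, 27.3, 6.75, 8.69 and 7.26 CPM, against 4.72, 6.63 and 1.72 CPM in PBS mice 1, 71 and 73. The lowest KA mouse and the highest control were thus almost level, and KA mouse 67 stood far above the rest. The fitted log2 fold change was 1.47 (SE 0.56). Lyz1, the close paralog of Lyz2, was at or below 1.19 CPM in each of these libraries. Complete separation of this kind, KA above PBS, was found in 2 of the 10 genes and in 2.62% of the 16470 genes fitted. It belongs to the contrast that chose the genes, and nothing is read from it.

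Plek and Ptprc, both also known from microglia, overlapped between treatments at 24 hours. Plek measured 12.8, 18.2, 30.8, 21.2 and 14.5 CPM in KA mice 8, 67, 79, 97 and 98 and 15.2, 9.97 and 4.29 CPM in PBS mice 1, 71 and 73. The groups overlapped through PBS mouse 1, and the log2 fold change was 0.98 (SE 0.40). It was 1.76 with the library set as a block, a fit that takes its KA effect from set 4. Ptprc measured 24.3, 15.7, 15.2, 11.96 and 15.7 CPM in the KA mice in that order and 12.9, 15.2 and 4.51 CPM in the PBS mice, with a log2 fold change of 0.69 (SE 0.45). Fcgr3 overlapped widely, from 4.55 to 14.0 CPM in KA mice and from 3.51 to 11.1 CPM in PBS mice. Its near relative Fcgr2b, an inhibitory IgG receptor, ranged from 3.03 to 74.2 CPM in the KA mice. The PBS mice, at 8.44 to 24.2 CPM, lay within that range. Cd52 was low throughout, 1.21 to 4.10 CPM in KA mice against 0.429 to 1.97 CPM in PBS mice.

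Ccr2, S100a8 and S100a9 were highest in KA mouse 8. Ccr2 measured 32.2 CPM in that animal and 12.6, 7.72, 10.0 and 7.26 CPM in KA mice 67, 79, 97 and 98, against 9.08, 13.2 and 5.37 CPM in PBS mice 1, 71 and 73. The other 4 KA mice lay within the range of the controls. S100a9 measured 10.5 CPM in mouse 8 and 3.54, 0.281, 1.34 and 3.63 CPM in mice 67, 79, 97 and 98, and the PBS mice 1, 71 and 73 measured 0.812, 3.48 and 0.0715 CPM. S100a8 followed its partner, with 5.34 CPM in mouse 8, 0.156 to 2.53 CPM in the other KA mice, and 0.517, 1.51 and 0 CPM in the controls. Without mouse 8 the fitted log2 fold change of Ccr2 moved from 0.77 to -0.08, that of S100a8 from 1.68 to -0.40 and that of S100a9 from 1.61 to -0.02. With the library set as a block, S100a9 moved to -1.29, S100a8 to -1.70 and Ccr2 to -0.17. That fit takes its KA effect from set 4, which does not hold mouse 8, so it is not a separate result. Without PBS mouse 71 the values were 3.02 for S100a8, 3.26 for S100a9 and 1.07 for Ccr2.

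Slfn4 differed more among mice of 1 treatment than between treatments. KA mice 8, 67, 79, 97 and 98 measured 4.75, 14.6, 8.94, 3.04 and 2.42 CPM. PBS mice 1 and 73 measured 1.25 and 0.429 CPM, but PBS mouse 71 measured 13.3 CPM, above all KA mice other than mouse 67. The log2 fold change was 0.41 (SE 0.92) with mouse 71 and 2.90 without it. It turned to -0.26 (SE 1.27) with the library set as a block and to -0.28 (SE 1.44) in a fit of set 4 alone. Both fits take the KA effect from set 4 and are not separate results. In mean log2 CPM with a prior count of 2, KA exceeded PBS by 0.93 in the same set 4 mice. The sign within set 4 therefore depended on the measure. That control was the highest of the 3 PBS mice for 8 of the 10 genes and lay above the lowest KA mouse for 7 of them, while PBS mouse 73 was the lowest control for all 10. The input library of mouse 71 held 4621 counts and none on the 10 genes, so its level could not be set beside a second measurement.

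Within set 4, the only set with both treatments at 24 hours, 2 KA and 2 PBS mice were compared in mean log2 CPM with a prior count of 2. Lilrb4a was higher in KA by 3.19, Plek by 1.93, Cd52 by 1.32 and Lyz2 by 1.13. S100a8 was lower by -0.35 and S100a9 by -0.19, and Ccr2 differed by 0.06. The value for Lilrb4a includes a count of 0 in PBS mouse 73. The edgeR fit of set 4 alone gave lower values, 1.83 (SE 1.18) for Lilrb4a and 1.74 (SE 0.36) for Plek. For Cd52 this fit gave 1.13 (SE 0.68) and for Lyz2 0.74 (SE 0.53). For S100a9 it gave -1.42 (SE 1.47) and for Ccr2 -0.19 (SE 0.38). Set 4 did not hold KA mice 8 and 67.

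**Figure D2:**
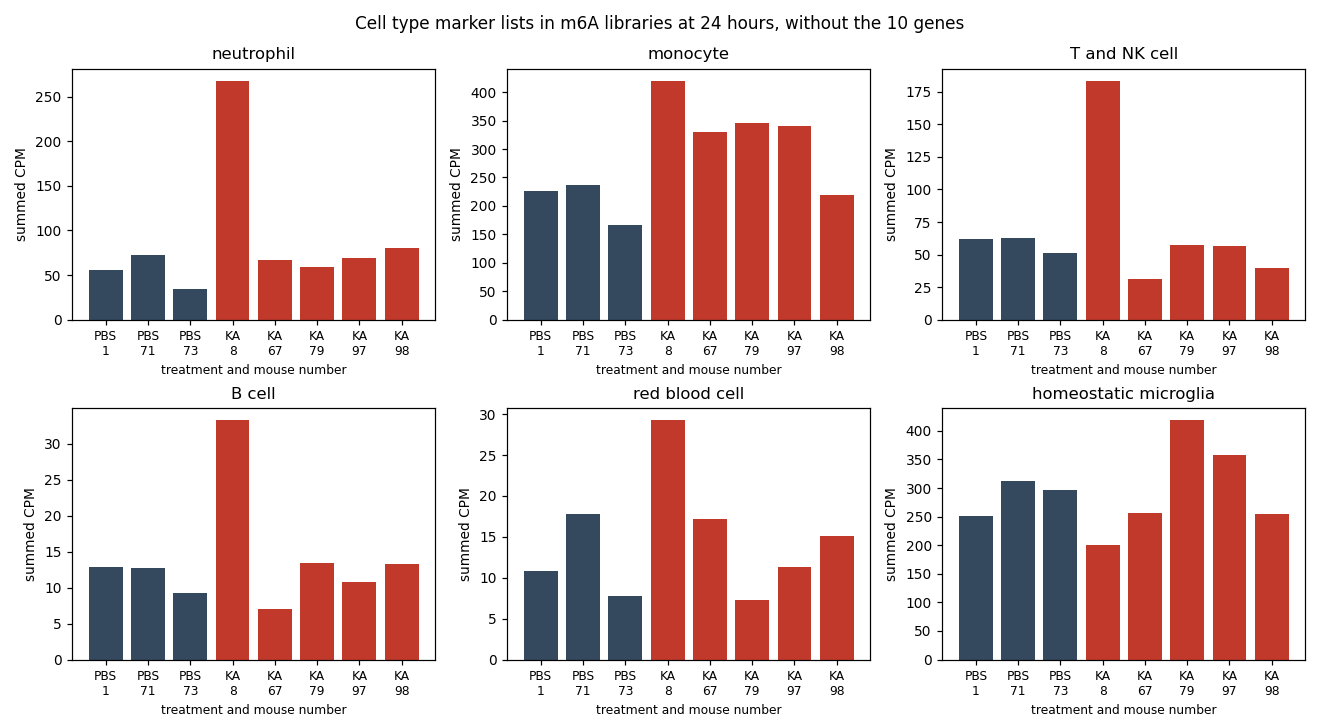
Summed CPM of 6 marker lists in the m6A libraries at 24 hours, 1 bar per mouse, PBS in dark slate and KA in red. KA mouse 8 was highest for the neutrophil, monocyte, T and NK cell, B cell and red blood cell lists and lowest for homeostatic microglia.

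Marker lists of other cells, none of which contains the 10 genes, moved with the same animals. The neutrophil list of 25 genes summed to 268 CPM in m6A RNA of KA mouse 8, against 59.1 to 80.5 CPM in the other 4 KA mice and 34.3 to 72.9 CPM in the PBS mice. In mouse 8 the T and NK cell list reached 184 CPM against 31.3 to 57.1 CPM in the other KA mice, the B cell list 33.2 CPM against 7.07 to 13.4 CPM, and the red blood cell list 29.2 CPM against 7.32 to 17.2 CPM. The same mouse was highest for each of these lists in input RNA, where the neutrophil list summed to 197 CPM and the red blood cell list to 42.1 CPM. Defining genes of neutrophils, chosen for naming after their values were seen, were at or near 0 in most libraries, other than Mpo. Ly6g, a surface protein of neutrophils, had 12 counts in m6A and 14 in input RNA of mouse 8 and at most 4 in any other library. Elane, a protease of immature neutrophils, had at most 2 counts in any library, mouse 8 included. Camp, another neutrophil gene, had 8 counts in input RNA of mouse 8. In m6A RNA Camp was at 0.223 CPM in mouse 8 and at 0.221 CPM in PBS mouse 1. Mpo, the peroxidase of neutrophil granules, was found in more libraries, in m6A RNA at 0.657 to 4.16 CPM in KA and 0.789 to 1.18 CPM in PBS mice at 24 hours and at 0.405 to 1.84 CPM in KA and 0 to 1.01 CPM in PBS mice at 2 weeks. The part of these other cells, or of residual blood, in the values of Ccr2, S100a8 and S100a9 was not tested.

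The homeostatic microglia list of 12 genes did not separate the treatments at 24 hours, with 200 to 418 CPM in KA and 252 to 313 CPM in PBS m6A libraries. P2ry12, a purinergic receptor that marks resting microglia and was also named after its values were seen, was lower in every KA mouse (5.87 to 13.2 CPM) than in every PBS mouse (18.1 to 20.4 CPM). Its log2 fold change was -1.29 (SE 0.31), which did not pass the threshold (edgeR adjusted p = 0.323). Complete separation with KA below PBS was found in 1.09% of all genes fitted. Cx3cr1, another microglial receptor, ranged from 61.1 to 137 CPM in KA and from 63.7 to 91.4 CPM in PBS mice.

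At 2 weeks the pattern among the 10 genes was different. Ptprc, Plek, Fcgr3 and Cd52 had every KA mouse above every PBS mouse, and the other 6 genes overlapped. Ptprc measured 7.88, 11.4, 11.7, 7.25 and 7.12 CPM in PBS mice 3, 2, 4, 50 and 78, and from 14.1 to 22.4 CPM, with a median of 17.5, in the 6 KA mice. Plek measured 13.5, 10.6, 9.27, 6.05 and 5.46 CPM in PBS mice 2, 3, 4, 50 and 78 and 15.4 to 25.3 CPM (median 19.6) in KA mice. Both genes were free of overlap, with log2 fold changes of 1.05 (SE 0.23) for Ptprc and 1.22 (SE 0.26) for Plek.

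Fcgr3 and Cd52 showed the same arrangement. Fcgr3 measured 4.83, 6.23, 5.93, 4.06 and 3.12 CPM in PBS mice 2, 3, 4, 50 and 78, and the KA mice ranged from 6.64 to 17.6 CPM with a median of 11.5. Its log2 fold change was 1.33 (SE 0.26), and the lowest KA mouse, mouse 6, lay just above the highest control. Cd52 measured 0.576, 0.733, 0.760, 0.526 and 0.585 CPM in the PBS mice in that order, on 5 to 14 counts each, and 1.37 to 2.98 CPM (median 1.68) in KA mice, a log2 fold change of 1.65 (SE 0.33). Of the 10 genes, 4 thus separated the groups, against 0.26% of the 16157 genes fitted, in a contrast that chose them. Fcgr4, an activating IgG receptor close to Fcgr3, lay at 0.601 to 2.01 CPM in KA and 0 to 0.877 CPM in PBS mice.

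Lilrb4a had the largest fold change at 2 weeks and low levels. It was at 0, 0.0376, 0.0975, 0.183 and 0.504 CPM in PBS mice 4, 50, 78, 3 and 2, that is 0 to 7 counts, and at 0.336 to 2.43 CPM (median 1.31) in KA mice. The log2 fold change was 3.01 (SE 0.69), and KA mouse 5 lay below the highest control. A count of 0 in PBS mouse 4 allows a level of up to 0.456 CPM. The mean of KA mice at 2 weeks, 1.32 ± 0.72 CPM (SD, n = 6), was below every KA mouse at 24 hours. The mean of PBS mice was also lower, 0.165 CPM at 2 weeks against 1.44 CPM at 24 hours.

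Lyz2 and Ccr2 overlapped between treatments at 2 weeks. Lyz2 measured 9.73 to 15.8 CPM (median 11.6) in KA mice and 9.22, 4.40, 3.42 and 0.877 CPM in PBS mice 2, 3, 50 and 78, all below the KA mice, but 19.8 CPM in PBS mouse 4. Ccr2 measured 3.73 to 10.96 CPM (median 7.02) in KA mice and 7.20, 6.66, 0.912, 6.80 and 5.56 CPM in PBS mice 2, 3, 4, 50 and 78. PBS mouse 4 was thus the highest control for Lyz2 and the lowest of all 11 mice for Ccr2. Slfn4, at 0.240 to 0.981 CPM in KA and 0.183 to 1.67 CPM in PBS mice, did not differ in level beyond its spread, with a log2 fold change of 0.09 (SE 0.54). S100a9 reached 3.27 CPM in KA mouse 7 and 0 to 1.17 CPM in the other 5 KA mice, and S100a8, at 0 to 1.64 CPM, was too low to be fitted.

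Set 5 held 3 KA and 3 PBS mice at 2 weeks. Within it the difference in mean log2 CPM was 2.12 for Lilrb4a, 1.01 for Fcgr3, 1.00 for Cd52, 0.81 for Plek and 0.57 for Ptprc. S100a9 differed by 1.17, S100a8 by 0.90 and Ccr2 by 0.61, each with overlap. Slfn4 differed by -0.06 and Lyz2 by 0.38, with overlap. The KA libraries outside set 5 were all in set 3 and the PBS libraries all in set 4. With the library set as a block the log2 fold change of Ptprc fell from 1.05 to 0.62 and that of Cd52 from 1.65 to 1.23. That fit takes its KA effect from set 5.

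No KA against PBS call was made for the 10 genes by edgeR's quasi-likelihood test at an adjusted p of 0.05, and almost none for any gene. In m6A libraries 1 of 16470 genes, or 0.00607%, was called at 24 hours (Tm4sf1, a membrane protein of endothelium, higher in KA) and 0% at 2 weeks, and in input libraries 0% at either time. Without adjustment, 875 genes at 24 hours and 809 at 2 weeks in m6A libraries were below 0.05. DESeq2, the alternative tool, called 17 genes higher in KA in m6A libraries at 2 weeks, 0.0919% of those it tested, and 5 of the 17 were Ptprc, Cd52, Plek, Fcgr3 and Lilrb4a. Since the contrast chose the genes, these calls are no independent evidence.

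**Figure D3:**
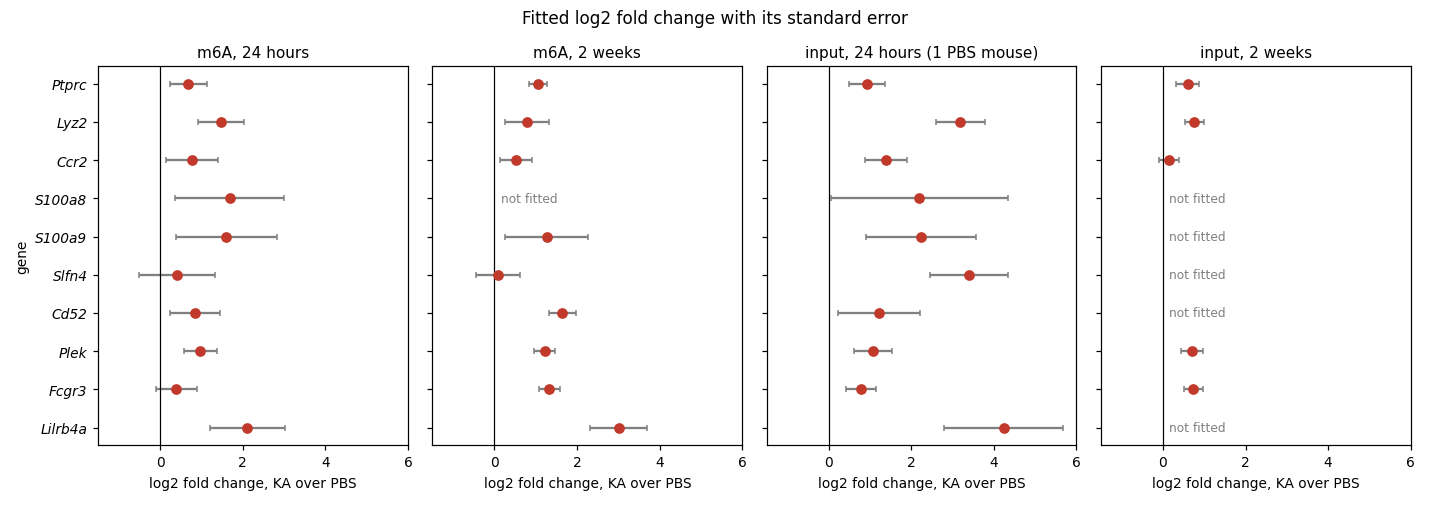
Log2 fold change of KA over PBS with its standard error for the 10 genes in the 4 comparisons, where genes marked as not fitted had too few counts. All fitted values lay above 0, and the largest errors were those of S100a8 and Lilrb4a in input libraries at 24 hours.

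Input RNA gave the level of the same genes without immunoprecipitation. At 24 hours 3 KA mice could be set beside PBS mouse 1 alone, so the spread was taken from all 13 deeper input libraries. Lyz2 measured 28.9, 9.98 and 11.3 CPM in KA mice 67, 8 and 98 and 2.21 CPM in the control, a log2 fold change of 3.19 (SE 0.59). Slfn4 measured 17.6, 4.24 and 3.33 CPM in these mice and 0.945 CPM in the control, and Lilrb4a measured 6.91, 5.24 and 3.07 CPM against 0.315 CPM. Their log2 fold changes were 3.40 (SE 0.94) and 4.24 (SE 1.45), the latter resting on 4 counts in the control. Of the 10 genes, 7 had all 3 KA mice above the control, against 10.9% of the 17644 genes fitted.

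The S100a8 and S100a9 pair was again highest in KA mouse 8 in input RNA, at 3.03 and 5.45 CPM, with 1.09 and 2.55 CPM in mouse 67, 0 and 0.512 CPM in mouse 98 and 0.394 and 0.788 CPM in PBS mouse 1. Ccr2 measured 22.6, 17.3 and 8.19 CPM in KA mice 8, 67 and 98 and 7.88 CPM in the control. Plek did not separate, because KA mouse 8, at 12.2 CPM, was level with the control. The Plek-low and S100a9-high profile of mouse 8 therefore appeared in both of its libraries.

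**Figure D4:**
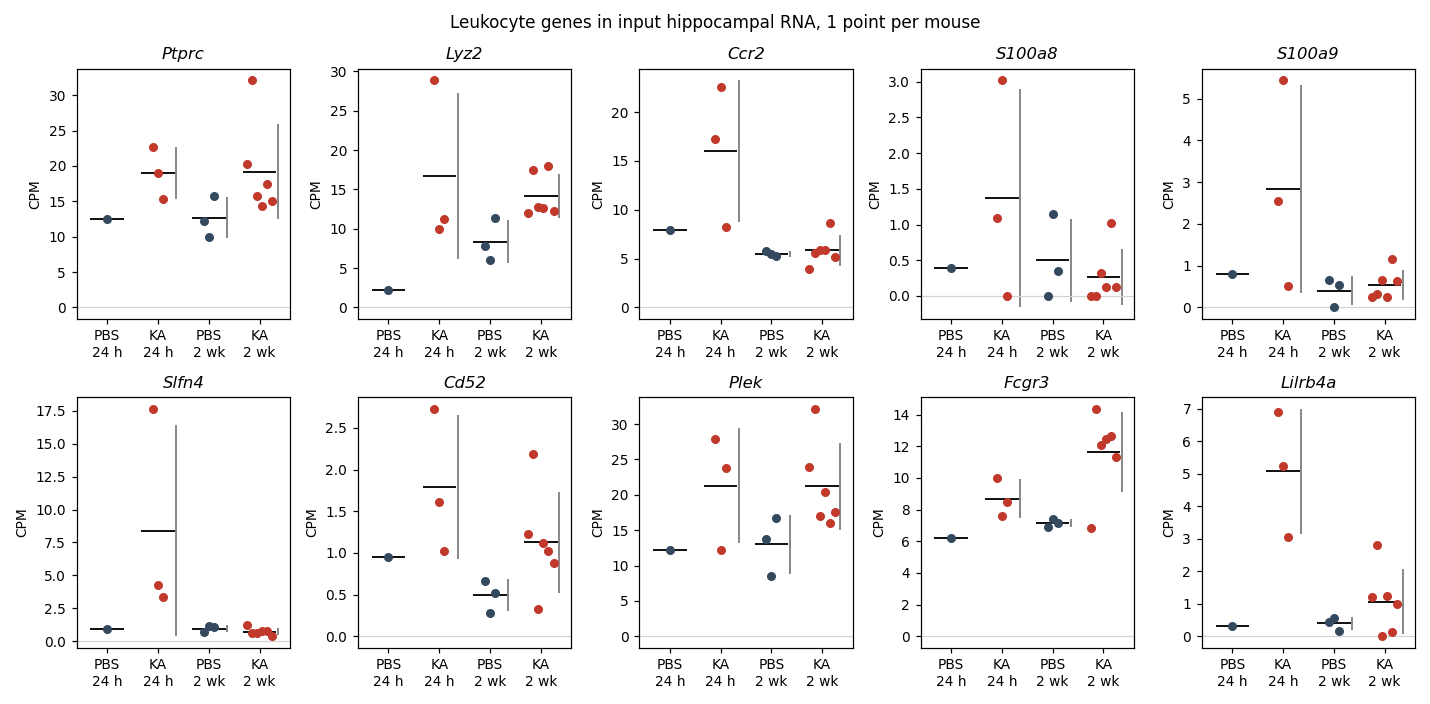
CPM of the 10 genes in the 13 input libraries of 100000 or more counts, 1 point per mouse, PBS in dark slate and KA in red, with group means (black lines) and 1 SD (grey whiskers, where a group has more than 1 mouse). At 24 hours the only PBS mouse lies below all KA mice for 7 genes, and at 2 weeks the groups are apart for Lyz2 alone.

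At 2 weeks the input libraries, with 6 KA and 3 PBS mice, separated Lyz2 only. It measured 7.77, 5.99 and 11.4 CPM in PBS mice 2, 3 and 4 and 11.97 to 18.03 CPM (median 12.7) in KA mice, with a log2 fold change of 0.76. Separation was thus found in 1 of the 10 genes and in 2.64% of the 13752 genes fitted. Ptprc measured 12.2, 9.98 and 15.7 CPM in PBS mice 2, 3 and 4 and 14.3 to 32.1 CPM (median 16.5) in KA mice. Plek measured 13.8, 8.55 and 16.8 CPM in the PBS mice and 16.0 to 32.1 CPM (median 18.99) in KA mice, and Fcgr3 6.88, 7.41 and 7.17 CPM against 6.84 to 14.4 CPM (median 12.3). Each overlapped by a small margin, through 1 to 3 KA mice. KA mouse 42 was highest for Ptprc, Plek, Fcgr3, Cd52 and Lilrb4a in both its input and its m6A library.

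Ccr2 overlapped widely in input RNA at 2 weeks, with 5.78, 5.42 and 5.24 CPM in PBS mice 2, 3 and 4 and 3.91 to 8.69 CPM (median 5.74) in KA mice, a log2 fold change of 0.14. S100a8, S100a9, Slfn4, Cd52 and Lilrb4a had 0 to 10 counts per input library at that time and were below the filter on low counts. Their input levels were not distinguishable at this depth.

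**Figure D5:**
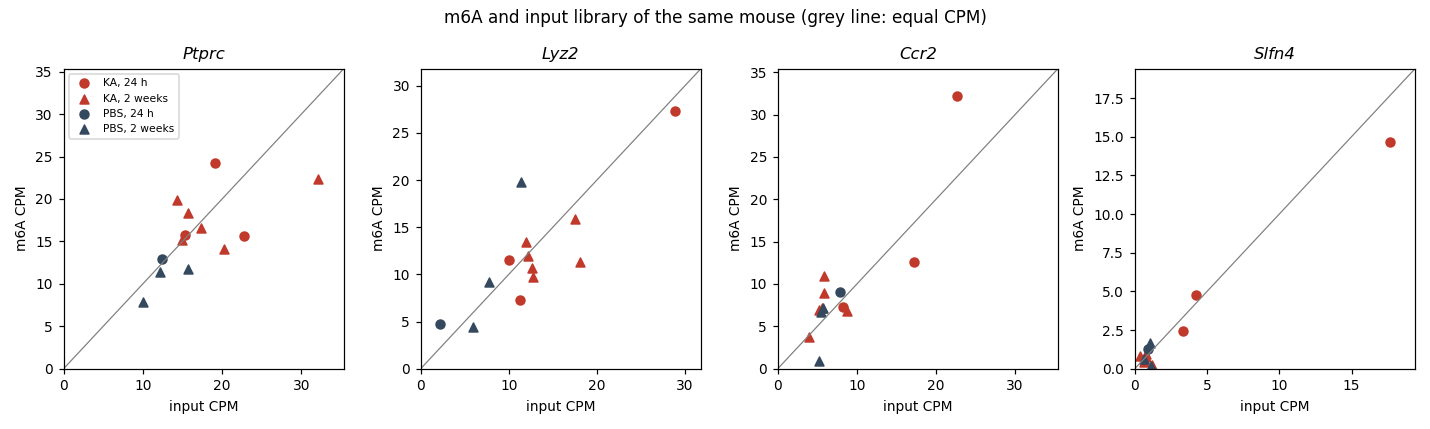
CPM in the m6A library (vertical axis) against CPM in the input library (horizontal axis) of the same mouse for Ptprc, Lyz2, Ccr2 and Slfn4, circles for 24 hours and triangles for 2 weeks, KA red and PBS dark slate. The grey line marks equal CPM. Points lie on both sides of it, and KA mouse 67 is at the top right for Lyz2 and Slfn4 and KA mouse 8 for Ccr2.

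The m6A against input comparison was not itself used to choose the genes and was tested. It draws on the same library values as the choice, however. Choosing genes that are low in PBS relative to KA can shift these ratios, so the test is not independent of the choice. Both libraries were at hand from 13 mice. The median ratio of m6A to input CPM was 0.955 for Ptprc, 0.943 for Lyz2, 0.962 for Plek and 0.910 for Fcgr3, each with ratios on both sides of 1, and 1.23 for Ccr2 with a range of 0.174 to 1.86. Cd52, whose transcript has no GGACT, was higher in the m6A library in 11 of 13 mice, and in the 7 mice with more than 3 counts in both libraries its ratio was 1.06 to 1.79. Lilrb4a, with the densest GGACT, was higher in 9 of 13, and where both counts were above 3, in 8 mice, its ratio was 0.844 to 2.81. For Slfn4 the ratio ran from 0.197 to 1.59.

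By edgeR's quasi-likelihood test none of the 10 genes differed between m6A and input RNA. In PBS mice at 2 weeks, with 5 m6A and 3 input libraries, 5 genes were fitted. Fcgr3 had the lowest value, -0.82 on the log2 scale for m6A over input (SE 0.29, adjusted p = 0.216), with all m6A libraries below all input libraries, Plek by -0.79 (SE 0.33, adjusted p = 0.270) and Ptprc by -0.73 (SE 0.27, adjusted p = 0.220). In that comparison 1.12% of all genes were called. In KA mice at 2 weeks, with 6 libraries of each kind, 7 genes were fitted and 2.64% of all genes were called. Lyz2 was at -0.41 (SE 0.17, adjusted p = 0.211), Fcgr3 at -0.21, Plek at -0.29 and Ptprc at -0.28, and Cd52 was at 0.57 (SE 0.35, adjusted p = 0.400). In KA mice at 24 hours, with 5 m6A and 3 input libraries, all 10 were fitted, the smallest adjusted p was 0.830, and 0% of all genes were called, 1060 being below 0.05 before adjustment. With the mouse as a replicate block, none of the 10 genes was called either, while the genes called numbered 57 in PBS mice and 1339 in KA mice at 2 weeks and 20 in KA mice at 24 hours. These tests compare a gene's share of the 2 kinds of library, and a p above the threshold does not show that the shares were alike.

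The wider immune programme was described by 202 genes in 13 lists that exclude the 10. In edgeR's test no listed gene passed an adjusted p of 0.05 in KA against PBS in any of the 4 comparisons, while DESeq2 called 8 and 4 of them in m6A libraries at 24 hours and 2 weeks and 5 and 2 in input libraries. At 24 hours in m6A libraries, the log2 fold changes had a median of 0.08 across all fitted genes and of 0.91 across the 10. A scarce gene can pass the filter on low counts through the group where it is high. Counts of listed genes above 0, here and at 2 weeks, are therefore a description. All 11 of the 25 neutrophil genes that could be fitted were above 0 (median 1.06), as were 15 of 16 fitted monocyte genes (median 1.16), 27 of 28 pan-myeloid genes (median 0.77, the list of genes shared by myeloid cells), 12 of 13 genes of leukocyte recruitment (median 1.101, chemokines and adhesion molecules) and all 16 fitted relatives and partners of the 10 genes (median 1.39). Within the monocyte list only S100a4, S100a6 and Cd44, named after their values were seen, had every KA mouse above every PBS mouse. That arrangement was found in 2.62% of all genes fitted. Ly6c2 at 1.24 (SE 0.92), Ccr1 at 1.60 (SE 1.14) and Ms4a4c at 0.65 (SE 0.76) overlapped between treatments. The homeostatic microglia list had 5 of 12 above 0 (median -0.07) and the hippocampal neuron list 2 of 10 (median -0.45). The T and NK cell list could be fitted for 8 of 24 genes (7 above 0, median 0.65), the B cell list for 6 of 12 (4 above 0, median 0.70) and the dendritic cell list for 9 of 11 (8 above 0, median 0.33). The perivascular macrophage list had 6 of 6 above 0 (median 0.85), the red blood cell list 3 of 4 (median 0.53) and the choroid plexus list 7 of 7 (median 1.19), with summed levels for the last of 28.6 to 982 CPM across the KA mice and 45.6 to 602 CPM across the PBS mice.

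The ligands of CCR2, held in the list of relatives and partners, are named here after their values were seen. Ccl2, the main monocyte attractant, lay at 5.45 to 23.2 CPM in m6A libraries of KA mice at 24 hours and at 0.0715 to 1.43 CPM in PBS mice. Ccl12 lay at 13.9 to 59.8 CPM against 0.858 to 3.33 CPM, and Ccl7 at 0.605 to 3.75 CPM against 0 to 0.394 CPM. In each case all KA mice lay above all PBS mice, unlike Ccr2 itself. Such separation was found in 2.62% of all genes fitted. None of the 3 ligands passed the threshold (edgeR adjusted p = 0.157 for Ccl2, 0.103 for Ccl12 and 0.42 for Ccl7). By 2 weeks Ccl2 was at 0.120 to 0.380 CPM in KA and 0 to 0.682 CPM in PBS mice.

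At 2 weeks in m6A libraries, the median over all genes was -0.00125 and that of the 9 fitted among the 10 genes was 1.22. All 27 fitted pan-myeloid genes were above 0 (median 0.75), as were 11 of 12 homeostatic microglia genes (median 0.44), while 9 of 13 monocyte genes (median 0.32), 6 of 6 fitted neutrophil genes of 25 (median 0.74) and 5 of 8 recruitment genes (median 0.19) were. Of the relatives and partners 11 of 12 were above 0 (median 0.34), of the T and NK cell list 6 of 7 (median 0.44), of the B cell list 4 of 5 (median 0.23), of the dendritic cell list 3 of 9 (median -0.20) and of the perivascular macrophage list 6 of 6 (median 0.53). The red blood cell list had 4 of 4 above 0 (median 0.70), the neuron list 3 of 10 (median -0.17) and the choroid plexus list 4 of 7 (median 0.05). In input libraries at 2 weeks, the 5 fitted of the 10 genes had a median of 0.70 beside 1.101 for 23 pan-myeloid genes, 0.62 for 12 homeostatic microglia genes and 0.02 for all genes.

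The summed level of each list was compared between treatments by a two-sided exact permutation test over mice, 26 tests in all. A sum of CPM gives most weight to the most abundant genes of a list and does not speak for each gene in it. With 5 against 3 mice at 24 hours the smallest p it can give is 0.0357, and with 6 against 5 at 2 weeks it is 0.00433. The pan-myeloid sum at 2 weeks was higher by 0.70 on the log2 scale with all KA mice above all PBS mice (360 to 722 CPM against 238 to 360 CPM), at that smallest exact p of 0.00433 and an adjusted p of 0.113. At 24 hours the recruitment sum (higher by 0.90) and the perivascular macrophage sum (higher by 0.75) were at the smallest exact p of 0.0357 and an adjusted p of 0.232, and the homeostatic microglia sum at 2 weeks (higher by 0.52) was at an exact p of 0.0476. The perivascular macrophage sum at 2 weeks, higher by 0.50, was at an exact p of 0.00866 and an adjusted p of 0.113. After Benjamini-Hochberg adjustment none of the 26 passed 0.05.

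The values at both times can be set side by side, with different animals at each. The mean of Slfn4 in m6A libraries of KA mice was 6.76 ± 5.09 CPM at 24 hours (SD, n = 5) and 0.646 ± 0.273 CPM at 2 weeks (SD, n = 6). Its lowest KA value at 24 hours, 2.42 CPM in mouse 98, rested on 4 counts. The mean of Lilrb4a in these libraries was 6.16 CPM at 24 hours and 1.32 CPM at 2 weeks. PBS mice were lower at 2 weeks as well, with overlap between the times. Their medians at 24 hours and 2 weeks were 1.25 and 0.585 CPM for Slfn4 and 0.886 and 0.0975 CPM for Lilrb4a. Library sets also differed, as KA mice lay in sets 3 and 4 at 24 hours and in sets 3 and 5 at 2 weeks. Ptprc (16.6 ± 4.6 and 17.8 ± 3.1 CPM), Plek (19.5 ± 7.1 and 19.8 ± 3.8 CPM), Cd52 (2.05 ± 1.16 and 1.86 ± 0.57 CPM) and Lyz2 (12.3 ± 8.6 and 12.2 ± 2.2 CPM) had similar means at the 2 times with wide spread at 24 hours. For genes of the 13 lists, the change of the KA effect between the times was tested in 1 fit, which called no listed gene and 0.00573% of all genes.

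Scaled by the length of the canonical transcript, the order of the genes also differed between the times. In m6A libraries of KA mice at 24 hours S100a9 had the highest mean, 6.73 CPM per kb, followed by Fcgr3 (5.92), Plek (4.70) and Lilrb4a (4.21), and Slfn4 had the lowest (1.74). With a range of 0.281 to 10.5 CPM among mice, S100a9 did not differ from its neighbours in that order beyond its spread. At 2 weeks Fcgr3 was first (7.55 CPM per kb), then Plek (4.78), Lyz2 (4.06) and Cd52 (3.56), and Slfn4 was last (0.167).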

How the data were processed

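The authors deposited raw counts of reads per gene, in 4 columns for each library, taken from their names as sequencing lanes. Libraries were made with a stranded total RNA kit and the build named in the submitters' processing notes is mm10. For the aligner, the counter and strand handling, nothing was given in the sources used here. The columns were summed, giving 35 libraries, with 8 columns of libraries outside the labels not used. The assay of 27 libraries was inferred from the column prefix. Input libraries under 100000 counts were left out of the main fits.

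The 10 genes and the 13 lists were chosen with earlier results of these data known. The 10 genes were named throughout, and from each list up to 3 genes past an adjusted p of 0.05 in KA against PBS whose groups did not overlap (none passed). Genes named beyond that were chosen after their values were seen. Counts were fitted in R 4.3.3 with edgeR 4.0.16 (TMM, filterByExpr, robust quasi-likelihood test, Benjamini-Hochberg over all genes), with DESeq2 1.42.0 as an alternative. Other alternatives were the scaling, the filter, the samples in the fit, the library set or mouse as a block, and leaving out each library. List sums were compared by an exact permutation test on log2 CPM with a prior count of 2 (scipy 1.17.1). The scripts were tested on simulated data. Standard errors were derived from the fold change and the F statistic. Limits for a count of 0 use 3 counts and cover counting error only, since the counts are of reads and not of molecules. The mouse number in the labels pairs an m6A and an input library of the same animal. In 12 such mice the deviations of both libraries from their group means correlated by 0.0525 to 0.873, and 10 matched their own number best. The result for 1 listed gene is not reported here.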

Additional observations from a re-analysis of the deposited data

Results flagged for a closer look

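In 9 of the 40 sets of 4 or more libraries examined, 1 mouse stood apart from the others of its group by Dixon's criterion, where chance marks about 1 in 20 sets. In m6A libraries of KA mice at 24 hours these were Lyz2 in mouse 67 (27.3 CPM), Ccr2 in mouse 8 (32.2 CPM) and Cd52 in mouse 79 (4.09 CPM). In m6A libraries of KA mice at 2 weeks they were S100a9 in mouse 7 (3.27 CPM) and Cd52 in mouse 42 (2.98 CPM). In m6A libraries of PBS mice at 2 weeks they were Ccr2 in mouse 4, which was low at 0.912 CPM, and S100a8 in mouse 3 (0.672 CPM). In input libraries of KA mice at 2 weeks they were Ptprc in mouse 42 (32.1 CPM) and S100a8 in mouse 7 (1.02 CPM). Their causes were not tested.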

How the results depend on the processing

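None of the 10 genes was called between m6A and input RNA under any alternative run. In KA against PBS, the number of the 10 called was 5 by DESeq2 in m6A libraries at 2 weeks, and in input libraries at 24 hours 1 by DESeq2, 3 with the shallow libraries included and 0 to 2 with each library left out (2 without KA mouse 8). These KA against PBS contrasts chose the 10 genes, so such calls are no independent evidence and are to be read beside the calls over all genes. The number of all genes called moved more. In m6A libraries at 24 hours they numbered 3 with library size scaling, 132 by DESeq2, 22 without the filter, 31 with all groups in 1 fit, 0 with the library set as a block, 0 without libraries under 2000000 counts, 356 in set 4 alone and 0 to 45 with each library left out (45 without KA mouse 8, 0 without PBS mouse 71 or 73). At 2 weeks they numbered 18 by DESeq2, 2 without the filter, 1 with all groups in 1 fit and 0 to 1 with each library left out. In input libraries at 2 weeks they numbered 113 by DESeq2, 4 without the filter and 0 to 1 with each library left out, and at 24 hours 1 with library size scaling, 165 by DESeq2, 3 without the filter, 75 with the shallow libraries and 1 to 180 with each library left out (180 without KA mouse 8). For m6A against input in PBS mice at 2 weeks they numbered 343 with library size scaling, 759 by DESeq2, 57 with the mouse as a replicate block, 297 over the mice with both libraries without that block and 20 to 417 with each library left out. In KA mice at 2 weeks they numbered 1347 with library size scaling, 1031 by DESeq2, 1339 with the replicate block and 117 to 1282 with each library left out, and at 24 hours 139 by DESeq2 and 20 with the replicate block. The change of the KA effect gave 5 by DESeq2. The cause was not tested.

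Some uncalled m6A against input values of the 10 genes turned sign. With library size scaling Ccr2 was 0.0084 in PBS mice, Fcgr3 was 0.0048 in KA mice at 2 weeks, and Cd52, Fcgr3 and Lilrb4a were 0.27, 0.12 and 0.29 in KA mice at 24 hours. In PBS mice Lyz2 was 0.0073 with the replicate block and 0.13 over the same mice without it. With each library left out, Ccr2 ranged from -0.35 to 0.0045 in PBS mice and Lilrb4a from -0.11 to 0.62 in KA mice at 2 weeks. At 24 hours Ccr2 ranged from -1.34 to 0.055, S100a8 from -0.38 to 1.65, S100a9 from -1.38 to 1.25, Slfn4 from -1.06 to 0.37, Cd52 from -0.41 to 0.23, Fcgr3 from -0.55 to 0.00029 and Lilrb4a from -0.34 to 0.15. Sets 4 and 5 alone, the set of input libraries without a prefix, the libraries under 2000000 counts and the comparison without the block were added after the data had been seen. The exact permutation tests called 0 lists under every alternative run. Listed genes called in KA against PBS, 0 by edgeR as described, numbered in m6A libraries at 24 hours 8 by DESeq2, 3 without the filter, 2 with all groups in 1 fit, 5 in set 4 alone and 0 to 2 with each library left out (2 without KA mouse 8). At 2 weeks they numbered 4 by DESeq2, 1 without the filter and 0 to 1 with each library left out. In input libraries they numbered 2 by DESeq2 at 2 weeks, and at 24 hours 5 by DESeq2, 4 with the shallow libraries and 0 to 2 with each library left out (2 without KA mouse 8). Counts of 10 or fewer limited S100a8, S100a9, Slfn4, Cd52 and Lilrb4a in input RNA at 2 weeks.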
